A study of Drosophila melanogaster with 3 samples.

Results

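The genes described here are 10 genes of EGFR and Ras signalling in Drosophila melanogaster: Egfr, drk, Sos, Ras85D, Dsor1, rl, pnt, aop, sty and kek1. They were taken by name from tables of ChIP-seq peaks of SMARCAD1 and CBP in S2 cells, a cultured line of embryonic origin with features of blood cells. Of the 10 genes, 8 were named in at least 1 table (80%), against 39.2% of all protein-coding genes, and the tables name 6016 genes between them. The pathway was picked with earlier results of these data known, so this share is a description of the 10 genes. SMARCAD1, the product of Etl1 and labelled ASNA as well, is an ATP-dependent chromatin remodeller of the Snf2 family. CBP, the product of nej, is a histone acetyltransferase and a co-activator of transcription.

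Chromatin was immunoprecipitated with custom-made anti-SMARCAD1 or anti-CBP antibodies, and each antibody gave a single library without replicates. All cells, those of the input DNA library included, had received control dsRNA of EGFP for 6 h at 26 °C without serum and were kept for a further 72 h with serum, so no knockdown of SMARCAD1 or CBP is part of these data. The input library was not analysed here. SMARCAD1 had 3211 peaks in all and CBP had 3762, with median widths of 1792 and 1487 bp. The tables hold positions only, without read counts or scores, so the depth is unknown, peaks could not be ranked by strength, and a gene without a peak cannot be told from a gene whose peak fell below detection. Of 7 genes fixed as markers of plasmatocyte-like blood cells, srp, ush and Pvr had peaks of both antibodies, while Pxn, Hml, NimC1 and eater had none. A peak does not measure expression, so the identity of the cells was not checked further.

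In EGFR signalling, a ligand activates the receptor tyrosine kinase, the adaptor Drk brings the exchange factor Sos to the membrane, and Sos loads Ras85D with GTP. Active Ras starts a kinase cascade of Raf, the MAP kinase kinase Dsor1 and the MAP kinase Rolled, encoded by rl. In the nucleus, Rolled acts on 2 Ets-domain proteins with opposite roles, the activator Pointed (pnt) and the repressor Yan (aop). Sprouty (sty) and Kekkon-1 (kek1) are feedback inhibitors that the pathway itself switches on in several tissues.

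A gene was counted as having a peak where a table lists it, either as the gene with the nearest start or as another gene that the peak overlaps or nearly touches. By this count, 7 of the 10 genes had a SMARCAD1 peak (70%, Wilson 95% interval 39.7 to 89.2%) and 7 had a CBP peak, against 28.2% and 31.1% of 13951 protein-coding genes. Both antibodies had peaks at 6 genes, Ras85D, Dsor1, rl, pnt, aop and kek1 (60%, 31.3 to 83.2%), against a background of 20.1%. This count takes in peaks anywhere along a gene. With peak centres within 2000 bp of the start, SMARCAD1 was left at 2 genes, CBP at 5 and both at 2, against 19.9%, 25.3% and 13.7% of protein-coding genes. Egfr had a SMARCAD1 peak alone, drk had CBP peaks alone, and Sos and sty were in neither table. The intervals cover counting error only. The genes were chosen by name and are few, so these shares describe the 10 genes and no test was made.

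The number of peaks was very uneven. In total, 14 SMARCAD1 and 23 CBP peaks were listed for these genes. The Ets-domain genes held most of them, with 4 SMARCAD1 and 13 CBP peaks at pnt and 4 SMARCAD1 and 3 CBP peaks at aop. The other 6 genes with peaks had 1 or 2 of an antibody, or none. Without pnt, both antibodies had 10 peaks at these genes, so the higher number for CBP came from this gene alone.

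**Figure D1:**
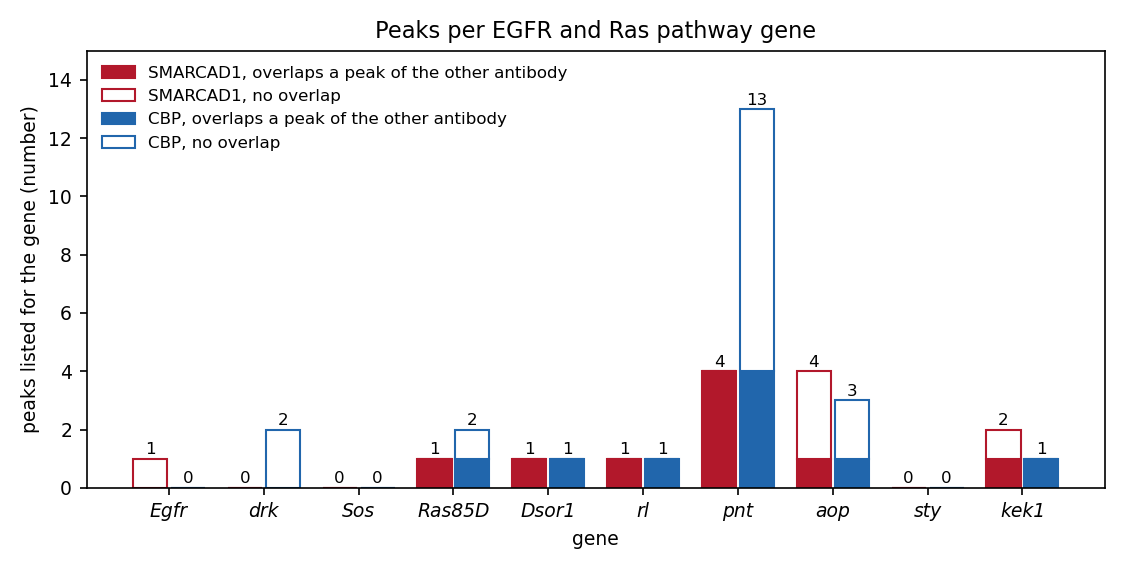
Number of SMARCAD1 (red) and CBP (blue) peaks listed for each of the 10 genes, from 1 library per antibody. The filled part of a bar counts peaks that overlap a peak of the other antibody by at least 1 bp, the open part the others, and the bars of pnt, with 4 SMARCAD1 and 13 CBP peaks, are the highest of each antibody, for SMARCAD1 together with those of aop.

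The gene start was covered less evenly than the gene. A CBP peak covered the listed start of 5 genes (drk, Ras85D, pnt, aop and kek1; 50%, 23.7 to 76.3%), and a SMARCAD1 peak covered that of 2 genes (Ras85D and aop; 20%, 5.67 to 51.0%). The background was 23.9% for CBP and 17.8% for SMARCAD1, so the share for SMARCAD1 was close to that of all protein-coding genes. Both antibodies covered the start of Ras85D and aop, against a background of 12.5%. At kek1, the SMARCAD1 peak ended 168 bp upstream of the start that the CBP peak covered. At Egfr, the SMARCAD1 peak ended 6 bp upstream of the start. These counts moved with the window. With peaks within 500 bp of the start counted as well, SMARCAD1 was at 4 gene starts, CBP still at 5 and both at 3, against 19.0%, 25.0% and 13.3% of protein-coding genes. With the central 500 bp of each peak alone, SMARCAD1 covered 1 start, CBP 2 and both 1, against 6.41%, 11.4% and 3.69%. The tables list 1 start per gene, while pnt, aop and Egfr have several transcripts, so a peak inside such a gene may lie at a start that the tables do not list.

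Egfr encodes the only EGF receptor of the fly. In the coordinates of the tables it lies at chr2R:17410510-17446932 on the plus strand, 36423 bp long. Its single SMARCAD1 peak, chr2R:17406030-17410504, was 4475 bp wide, wider than 90.2% of all SMARCAD1 peaks, with its centre 2243 bp upstream of the start. The peak covered the start of CG10494, the gene with the nearest start, and contained CG30288 and CG30289 whole. It therefore lay over a cluster of small genes in front of Egfr, and 0 bp of the body of Egfr were covered by either antibody. No CBP peak was listed for Egfr. The nearest CBP peaks upstream, 2 within 20 kb of the gene, ended 13571 bp or more before its start.

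The adaptor and the exchange factor had no SMARCAD1 peak. drk encodes the fly homologue of Grb2 and lies at chr2R:9382727-9390342 on the minus strand. It had 2 CBP peaks, one of 3645 bp over its start and one of 2117 bp inside the gene, with 21 bp between them. Together they covered 70.7% of the gene. The first peak also covered the start of mars, which runs in the opposite direction and overlaps drk by 263 bp. The start of mars was the nearest to this peak (1181 bp from its centre, against 1443 bp for drk), so the peak cannot be assigned to one of these genes. The second peak was nearest to the start of bbc. SMARCAD1 peaks lay on both sides of drk within 20 kb, 3 in all, but none touched the gene.

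Sos, the guanine nucleotide exchange factor of the pathway, was absent from both tables. In the order of the RefSeq annotation, 4 of the 10 protein-coding genes closest to Sos (5 on each side) were named in a table. All 4 were on the same side, and the share over all protein-coding genes was 39.2%. The gene next to Sos there, b, had 1 SMARCAD1 peak and no CBP peak.

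Ras85D encodes the Ras protein of the pathway and is a short gene of 2514 bp at chr3R:5336273-5338786 on the minus strand. Its start was covered by a SMARCAD1 peak of 2531 bp (chr3R:5337717-5340247) and by a CBP peak of 1678 bp (chr3R:5337789-5339466). The CBP peak lay wholly inside the SMARCAD1 peak and took up 66.3% of it. The centre of the SMARCAD1 peak was 196 bp upstream of the start and that of the CBP peak 158 bp downstream, so the centres lay 354.5 bp apart. Over all 2024 overlapping pairs of peaks in the tables, the median gap between centres was 135.5 bp (quartiles 47.5 and 523.9 bp). Both peaks also covered the start of Rlb1, a divergent gene that begins 282 bp upstream of Ras85D. A further CBP peak of 1770 bp covered the end of Ras85D and the start of rump, the next gene, and overlapped no SMARCAD1 peak.

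The kinase genes had 1 peak of each antibody, none of them near the gene's own start. Dsor1 encodes the MAP kinase kinase and lies at chrX:9141828-9144070. The SMARCAD1 peak, of 992 bp, and the CBP peak, of 824 bp, covered the end of Dsor1 and, 390 bp beyond it, the start of CG17754. The centres were 270 bp and 102 bp upstream of the start of CG17754, against 2362 bp and 2530 bp downstream of that of Dsor1. The peaks shared 741 bp, which was 89.9% of the CBP peak. Both peaks were narrow for their tables, wider than 10.7% of SMARCAD1 and 9.46% of CBP peaks.

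rl encodes the MAP kinase Rolled and is known for its place in the heterochromatin near the centromere. The tables place it on 2RHet, at 198176-247809, with a length of 49634 bp. One SMARCAD1 peak (1563 bp) and one CBP peak (781 bp) lay far inside the gene, with centres 44647 bp and 44035 bp from its start, and shared 560 bp. They covered 3.15% and 1.57% of the gene. Each antibody had 7 peaks on 2RHet in all. No peak of either antibody lay over the listed start of rl or within 20 kb on either side of the gene.

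pnt encodes the activator Pointed and had more peaks than any other of the 10 genes. It lies at chr3R:19116826-19171884 on the minus strand, with a length of 55059 bp. Its 13 CBP peaks were between 1206 and 3632 bp wide and ran from the start, covered by the first, to a centre 52928 bp into the gene. They covered 48.9% of the gene, in runs broken by 2 wide gaps of 8433 and 7609 bp. The other gaps between neighbouring peaks were between 4 and 1896 bp. No gene of the CBP table had more peaks than pnt, and Eip75B, an ecdysone-induced nuclear receptor gene, had the same number with 6 SMARCAD1 peaks. No gene met the rule for a like pattern, the same number of CBP peaks with a number of SMARCAD1 peaks within 1 of that of pnt.

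Length alone gives a gene more room for peaks, so pnt was set beside genes of at least 50000 bp that either table names. These 126 genes had a median of 2 CBP peaks (quartiles 1 and 3), and CBP covered a median of 2.84% of their length (1.05 to 9.05%). None of them had a higher share under CBP peaks than the 48.9% of pnt. For SMARCAD1, the 4 peaks covered 19.2% of pnt, against a median of 2.58% (0 to 6.43%), and 6 of the 126 genes had a higher share.

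All 4 SMARCAD1 peaks of pnt overlapped a CBP peak, while 9 of the 13 CBP peaks overlapped no SMARCAD1 peak. Over the whole tables, 58.9% of SMARCAD1 and 52.7% of CBP peaks overlapped the other antibody. The first 3 SMARCAD1 peaks lay side by side, at 15562 to 17368 bp, 18239 to 21456 bp and 22909 to 26801 bp from the start. The fourth lay near the end of the gene, at 52120 to 53762 bp. The peaks of the antibodies met closely. In the order from the start, the pairs shared 1807, 3218, 2977 and 1332 bp, and their centres lay 9, 67, 576 and 13.5 bp apart. In the first pair, both peaks had the same base as one border and differed by 18 bp at the other, and a border of equal coordinate on that side was found in 8 of all 2024 pairs (0.395%). In all, 88.4% of the bp under SMARCAD1 at pnt were under a CBP peak, against 31.9% of the bp under CBP. Over the whole tables, the values were 51.1% and 50.5%. CBP peaks covered 48.9% of pnt, against a median of 2.84% over the 126 long genes. A SMARCAD1 peak inside pnt therefore had more CBP sequence to meet than in most of those genes. Whether the overlap at pnt goes beyond what this coverage gives was not tested.

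No SMARCAD1 peak was listed over the first 15561 bp of pnt, where CBP had 3 peaks. The first of these, 2738 bp wide, covered the start of pnt and that of DNApol-epsilon, which begins 2029 bp upstream in the opposite direction. A further 6 CBP peaks without SMARCAD1 lay between 27729 and 51275 bp from the start. Of the 13 CBP peaks, 6 had pnt as the gene with the nearest start. The other 7 were nearest to the start of CG4434, the gene behind the end of pnt, although they lay inside pnt.

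**Figure D2:**
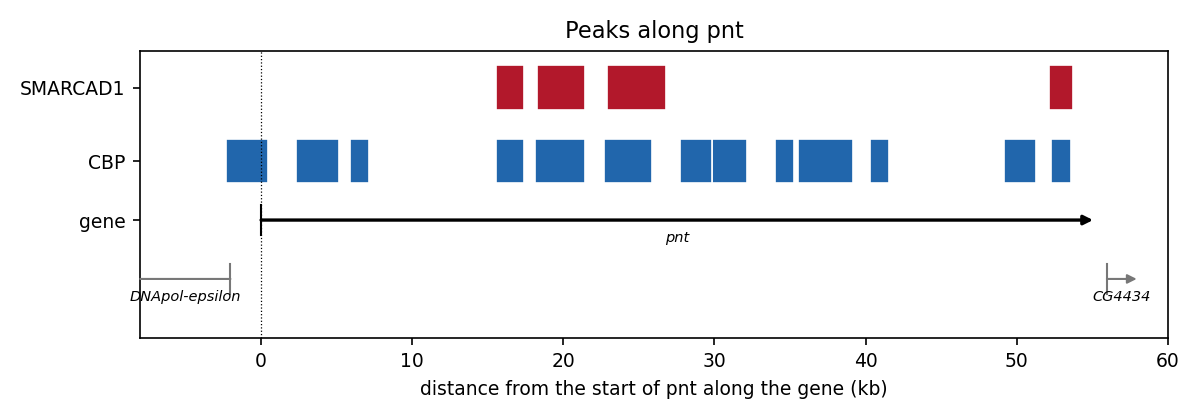
Peaks of SMARCAD1 (red) and CBP (blue) along pnt, by distance from the start of pnt in kb in the direction of transcription, with an arrow for each gene that the tables name. The 4 SMARCAD1 peaks sit on CBP peaks, while the CBP peak at the start and the 6 CBP peaks between 27729 and 51275 bp, which have gaps between them, have no SMARCAD1 peak over them.

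aop encodes Yan, the Ets-domain repressor that opposes Pointed. It lies at chr2L:2156484-2178749 on the minus strand and is 22266 bp long. SMARCAD1 had 4 peaks here, which covered 46.9% of the gene, and CBP had 3, which covered 38.0%. These shares were alike in size, but most of the covered sequence differed. The antibodies shared 1 pair of peaks, at the start, with 2408 bp in common, which was 18.2% of the bp under SMARCAD1 and 25.1% of those under CBP at aop. The SMARCAD1 peak of this pair was 6012 bp wide, wider than 96.8% of SMARCAD1 peaks, and reached 5077 bp into the gene. The CBP peak was 2602 bp wide and reached 1473 bp into the gene. Their centres lay 1899 bp apart, the widest gap among the 9 overlapping pairs at these genes.

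Beyond the pair at the start, the peaks of the antibodies at aop did not overlap. SMARCAD1 peaks of 1687 and 1868 bp lay at 6166 to 7852 bp and at 8028 to 9895 bp from the start. CBP peaks of 2758 and 4240 bp followed at 11067 to 13824 bp and at 14210 to 18449 bp. The last SMARCAD1 peak, 3679 bp wide, began at 20466 bp. It covered the end of aop and the small gene CG15382 as a whole, and the start of CG15382 was the nearest to it. With single libraries, a stretch listed for one antibody alone does not show that the other was missing there.

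**Figure D3:**
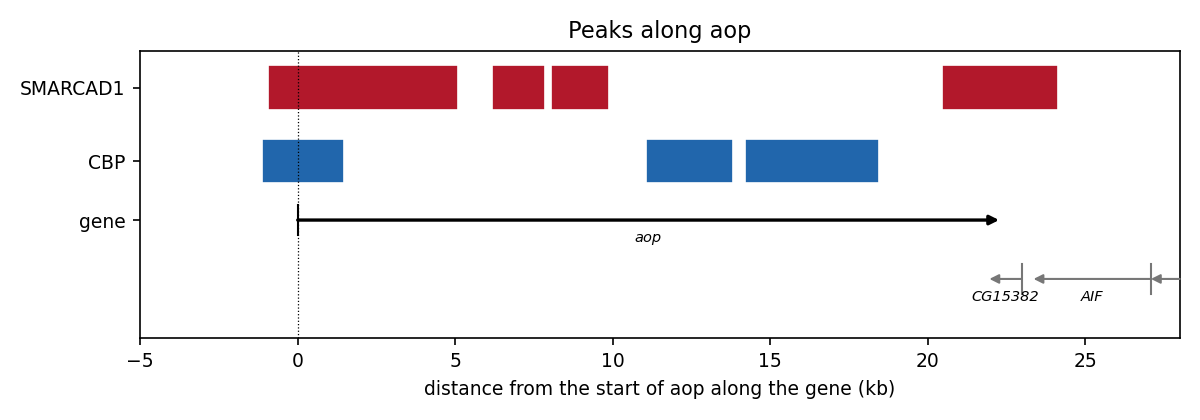
Peaks of SMARCAD1 (red) and CBP (blue) along aop, by distance from the start of aop in kb in the direction of transcription, with an arrow for each gene that the tables name. The antibodies overlap at the start, and from 6166 bp on the 3 further SMARCAD1 peaks and the 2 further CBP peaks share no sequence.

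The feedback inhibitors differed from each other. kek1 encodes a transmembrane protein with leucine-rich repeats that binds the receptor, and lies at chr2L:12818930-12822787 on the minus strand. Just in front of it, a SMARCAD1 peak of 1549 bp and a CBP peak of 1902 bp shared 1502 bp, which was 97.0% of the SMARCAD1 peak. Their centres were 942 bp and 719 bp upstream of the start. The CBP peak reached 232 bp into the gene, and the SMARCAD1 peak stopped short of it. A second SMARCAD1 peak of 2077 bp lay 14753 bp upstream, with kek1 as the nearest gene and no CBP peak over it. sty encodes Sprouty, an intracellular inhibitor of receptor tyrosine kinase signalling, and was in neither table. None of the 10 protein-coding genes closest to sty in the annotation, 5 on each side, was in a table either. The share over all protein-coding genes was 39.2%.

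**Figure D4:**
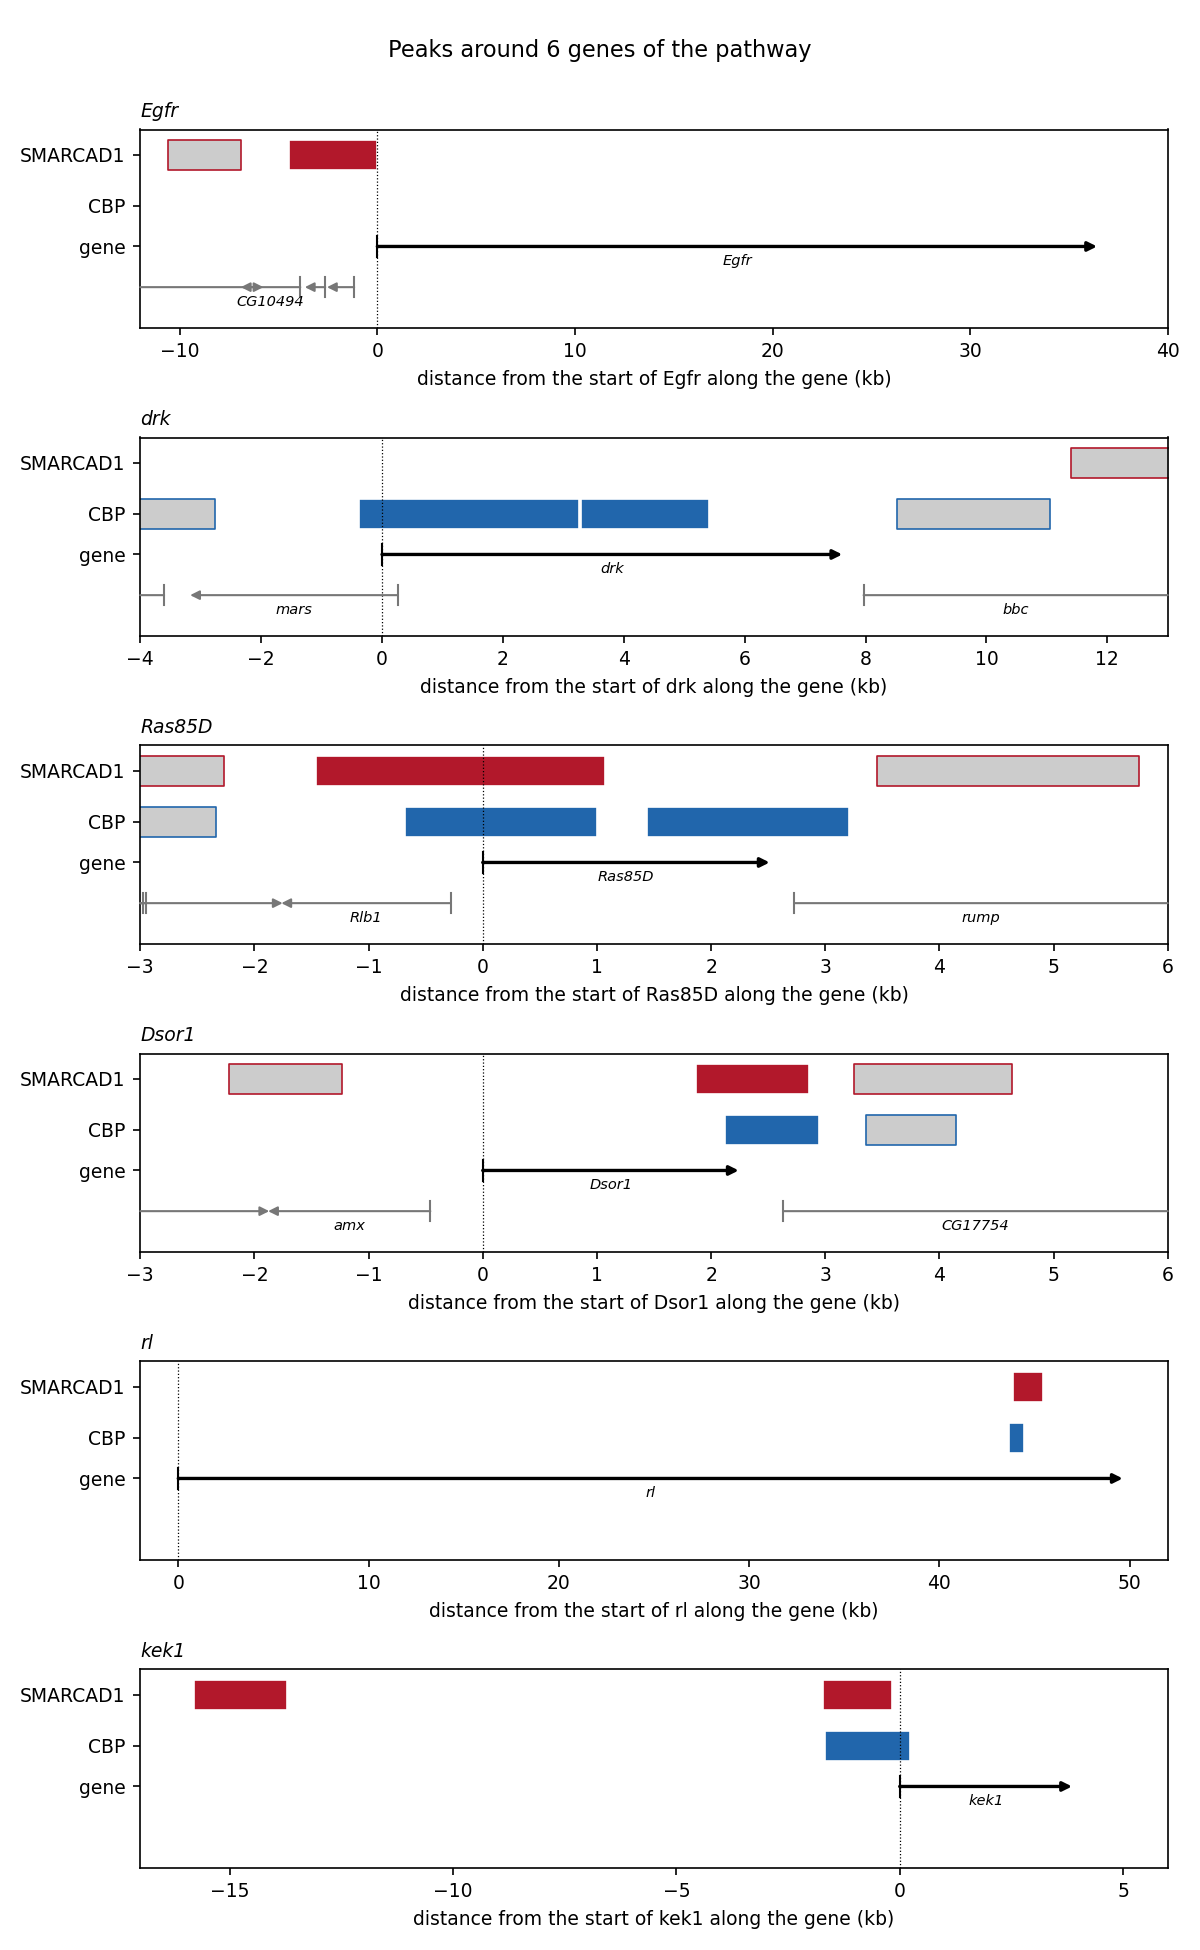
Peaks of SMARCAD1 (red) and CBP (blue) around Egfr, drk, Ras85D, Dsor1, rl and kek1, by distance from the start of each gene in kb in the direction of transcription. Grey boxes are peaks listed for other genes only, outlined in the colour of their antibody, and arrows are genes that the tables name. Both antibodies lie over the start of Ras85D and in front of kek1, the peaks of Dsor1 lie over its end, and Egfr has SMARCAD1 just upstream and CBP nowhere along the gene.

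Over all 10 genes, overlap with CBP was found for 9 of 14 SMARCAD1 peaks (64.3%, 38.8 to 83.7%), against 58.9% of the whole SMARCAD1 table. In the other direction, overlap with SMARCAD1 was found for 9 of 23 CBP peaks (39.1%, 22.2 to 59.2%), against 52.7% of the whole CBP table. The intervals treat peaks as independent, although 4 of these SMARCAD1 and 13 of these CBP peaks were at pnt. No difference from the whole table was tested. Without pnt, the counts were 5 of 10 for both antibodies. Where the peaks were within their genes differed more from the background. The class inside, for a peak that does not reach past either border of its gene, held 7 of the 14 SMARCAD1 entries (50%) and 16 of the 23 CBP entries (69.6%), against 17.5% and 18.6% of all entries with a gene. Without pnt, these were 3 of 10 and 4 of 10 entries. The peaks inside belonged to pnt, aop, rl and drk, with lengths of 55059, 22266, 49634 and 7616 bp. Peaks of 1 gene are not independent of each other. The background shares were not matched for gene length. The median width was 1972.5 bp for SMARCAD1 (992 to 6012 bp) and 2111 bp for CBP (781 to 4240 bp), within the quartiles of all SMARCAD1 peaks (1192 and 2890 bp) and CBP peaks (1018 and 2452 bp).

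A further list held 41 chosen genes in 6 groups, from ligands to nuclear effectors. It is not the whole of the pathway, and 7 of its genes encode other receptor tyrosine kinases. Of these, 24 had a SMARCAD1 peak (58.5%, 43.4 to 72.2%), 26 a CBP peak (63.4%, 48.1 to 76.4%) and 20 both (48.8%, 34.3 to 63.5%), against the 28.2%, 31.1% and 20.1% of all protein-coding genes given above. SMARCAD1 alone was listed for 4 genes and CBP alone for 6, and 11 genes were in neither table. A gene start was covered by SMARCAD1 at 13 genes (31.7%, against 17.8% of protein-coding genes), by CBP at 20 (48.8%, against 23.9%) and by both at 12 (29.3%, against 12.5%). Starts under CBP were more numerous than starts under SMARCAD1 here, at the 10 genes and over all protein-coding genes. With peak centres within 2000 bp of the start, 12 genes of the list had a SMARCAD1 peak and 21 a CBP peak. The shares of protein-coding genes at this window were 19.9% and 25.3%. In all, the list had 32 different SMARCAD1 and 49 different CBP peaks, of which 23 (71.9%) and 25 (51.0%) overlapped the other antibody. Over the whole tables, the shares were 58.9% and 52.7%. The interval of the list for SMARCAD1 (54.6 to 84.4%) treats peaks as independent, and no difference was tested.

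Of the 6 groups of the list, the kinase cascade and its scaffolds had the most starts under both antibodies, 6 of 8 genes, against 12.5% of protein-coding genes. The groups hold 4 to 8 genes each, and no difference between them was tested. The 6 genes were phl (Raf), cnk (a scaffold of Ras signalling), Mkp3 (a MAP kinase phosphatase), msk (an importin of Rolled), 14-3-3epsilon and 14-3-3zeta. The products of both 14-3-3 genes bind Raf. Some of these peaks were wide, with 5974 bp for SMARCAD1 and 5660 bp for CBP at 14-3-3epsilon and 4768 bp and 4445 bp at cnk. At msk, 14-3-3epsilon and 14-3-3zeta, the peaks of both antibodies over the start were nearest to the start of another gene. The SMARCAD1 peak over the start of phl was so as well. These peaks cannot be assigned to the named gene alone. At cnk and Mkp3, the peaks over the start were nearest to the gene itself. The gene of the scaffold Ksr was in neither table. Among the Ras regulators, Spred and vap, the gene of a GTPase-activating protein, had both antibodies at the start, Gap1 had a SMARCAD1 peak off its start, and Nf1 had none. dos, the gene of an adaptor of the Gab family, had 1 peak of each antibody over its start, and the peaks overlapped.

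Of the 8 genes of ligands and their processing, 6 had a CBP peak and 4 a SMARCAD1 peak, against 31.1% and 28.2% of protein-coding genes. The start of grk, the ligand of the germ line, was covered by both, with SMARCAD1 and CBP peaks of 2202 and 1893 bp. vn, another ligand gene, and S, whose product Star carries ligands out of the endoplasmic reticulum, had CBP alone, with 2 peaks and 1 peak, and CBP covered both starts. Krn and rho, and the secreted inhibitor gene aos, were in neither table. Among the 6 nuclear effectors and repressors, edl, whose product binds Yan and Pointed, had 2 SMARCAD1 and 3 CBP peaks, and both antibodies covered its start. cic, the gene of the repressor Capicua, is listed under this name with a single SMARCAD1 peak upstream of its start. RefSeq gives CG5060, which the tables list separately just upstream, as a synonym of cic, and both names were counted as 1 gene. Together they had 3 SMARCAD1 and 4 CBP peaks, with both antibodies over the start of CG5060. The SMARCAD1 peaks there were wide, 7144 and 7747 bp, and all 4 CBP peaks overlapped them. The co-repressor gene gro and the adaptor gene phyl had SMARCAD1 alone, with 1 peak each and none over the start.

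Several CBP peaks inside a gene were also found at Ptp61F, the gene of a tyrosine phosphatase, with 8 CBP peaks and 1 SMARCAD1 peak. They covered 15.8% of the gene, less than the 48.9% at pnt. Of these, 5 CBP peaks and the SMARCAD1 peak were also listed for ru, the gene of a ligand-processing protease of the rhomboid family, so they were counted under both names. InR, the insulin receptor gene, had 5 CBP and 2 SMARCAD1 peaks, all of them inside the gene, and the CBP peaks covered 22.0% of it. At Ptp61F and InR, as at pnt, every SMARCAD1 peak overlapped a CBP peak, against 58.9% of all SMARCAD1 peaks. These genes had only 1, 2 and 4 SMARCAD1 peaks, and no difference was tested. They were named for their many CBP peaks, which leave more sequence for an overlap. Every SMARCAD1 peak also overlapped a CBP peak at dos, cnk, Spred and vap, which had 1 CBP peak each. At grk and stet, with 1 CBP peak each, 1 of 2 SMARCAD1 peaks did. Of the 7 other receptor tyrosine kinase genes, InR, Pvr and htl had both antibodies, and sev, tor, btl and Alk were in neither table.

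**Figure D5:**
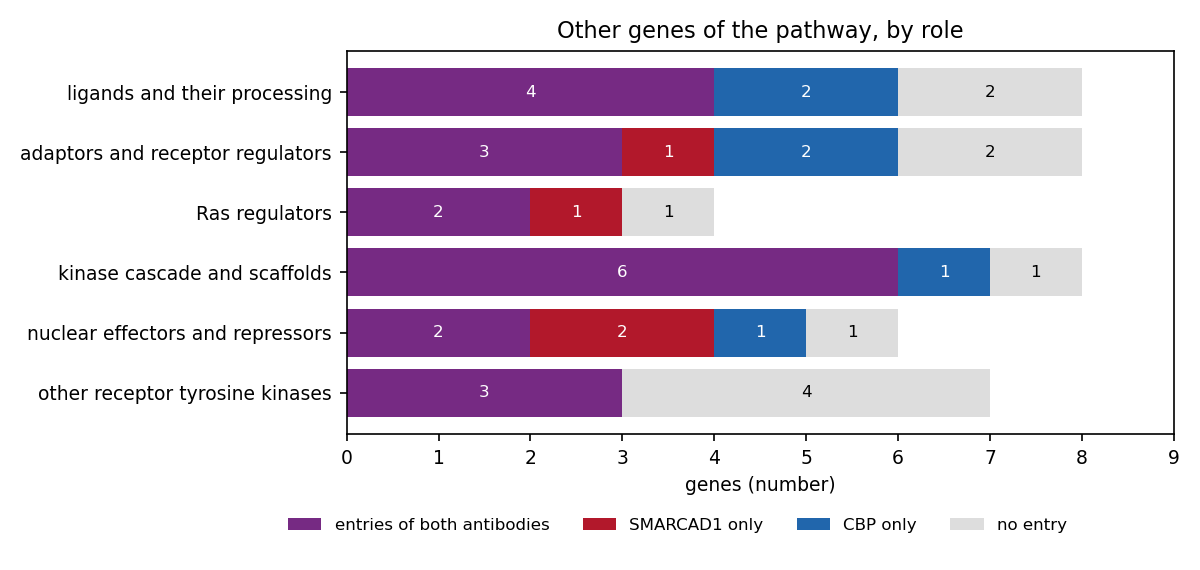
The 41 genes of the further list in 6 groups by role. Bars give the number of genes listed for both antibodies (purple), SMARCAD1 alone (red), CBP alone (blue) or neither (grey). The kinase cascade has 6 of 8 genes with both antibodies, and the nuclear effectors and repressors have 2 of 6 with both and 2 with SMARCAD1 alone.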

How the data were processed

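ChIP-seq peaks of SMARCAD1 and CBP from S2 cells were used, 1 library per antibody. For each library, the authors aligned reads by BWA, found peaks over a control by MACS and added genes by ChIPpeakAnno. The paper gives a lenient P value cutoff for MACS, so with 1 library per antibody some listed peaks may be false. The deposited tables give genome positions and lengths in bp, and no other unit. The labels name dm6, whereas chromosome names such as 2RHet and Uextra in the tables are not those of Release 6. The coordinates of the tables are printed unchanged, and RefSeq genes of Release 6 served for names and gene order only.

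Every entry of a gene was counted. Of 6016 gene names, 5865 (97.5%) were matched to RefSeq by symbol or by a synonym held by 1 gene, and the 13951 protein-coding genes were the background, which unmatched names lower slightly. Overlap was counted from 1 bp. Shares have Wilson 95% intervals, which cover counting error only. The depth is unknown. No test and no P value was computed, because there were no replicates. No sequence was used here. The tools were scipy 1.17.1, pandas 2.3.3 and matplotlib 3.10.9 in Python 3.11.15, and the overlap step was tested on simulated peaks.

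The 10 genes and the lists were chosen with earlier results of these data known. The 10 genes are all named. From the list of 41, the rule named the 12 genes with the most peaks among those with both antibodies over the start, 3 or more peaks of 1 antibody, or 1 antibody alone. Further genes of the list, such as dos, vn, S, msk and vap, were named after their values were seen. Alternatives were the nearest gene alone, other windows at the start, a minimum width, merged peaks and stricter overlaps.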

Additional observations from a re-analysis of the deposited data

How the results depend on the processing

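The alternatives gave 44 further values for 14 counts and medians, of which 30 were within 1.5 times the reported one. Leaving out pnt was chosen after the data were seen. Peak centres within 2000 bp of the gene start left 2 of the 10 genes with a SMARCAD1 peak, 2 with both antibodies, and 12 genes of the list of 41 with a SMARCAD1 peak. With the central 500 bp of each peak, a start was covered by SMARCAD1 at 1 gene, by CBP at 2 and by both at 1. With peaks within 500 bp of the start, SMARCAD1 was at 4 starts. When each peak counted for the nearest gene alone, 5 of the 10 genes had a SMARCAD1 peak, 5 a CBP peak and 5 both. In this setting, 10 CBP peaks remained at the 10 genes and 15 genes of the list had a SMARCAD1 peak. The share over all protein-coding genes was not computed for it. Without pnt, 10 CBP peaks were left, and 5 SMARCAD1 and 5 CBP peaks overlapped the other antibody. With centres within 200 bp, 4 of 14 SMARCAD1 and 4 of 23 CBP peaks overlapped, against 36.5% and 31.1% of all peaks. With 50% of both peaks shared, 7 of 14 and 7 of 23 overlapped, against 49.7% and 42.4%. With the central 500 bp of each peak, 6 of 14 and 6 of 23 overlapped, against 46.3% and 39.6%. The SMARCAD1 share was thus above that of its whole table by the 1 bp rule and below it with centres within 200 bp. These changes follow from counting fewer or more peaks. A stricter threshold could not be tried, since peak strength is not in the tables. No paired analysis was possible because there are no replicates to pair.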

Other observations

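The names of Ras-like genes in the tables need care. The gene ras, with 3 SMARCAD1 and 7 CBP peaks, is raspberry, which encodes an enzyme of purine synthesis and is no member of the Ras family. Among other small GTPase genes, chosen after the tables were seen, Rala had 4 SMARCAD1 and 3 CBP peaks, of which 3 and 3 overlapped the other antibody. Its start was covered by SMARCAD1 and not by CBP, the reverse of drk, pnt and kek1. Rheb, the GTPase upstream of TOR, had 1 peak of each antibody over its start, and these overlapped. R had 1 peak of each antibody without overlap, and its start was covered by CBP and not by SMARCAD1. Ras64B had 1 CBP peak over its start and no SMARCAD1 peak.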
